A study of Mus musculus with 4 samples.

Results

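Dppa5a, Dppa4, Dppa2, Dppa3 and Utf1 were each at least 4-fold higher in mouse embryonic stem cells (mESCs) than in 2 other mouse lines, yet they differed in their share of stem cells with a detected transcript and in how low they were elsewhere. Dppa2 was the exception outside the stem cells, with 67.2 CPM (counts scaled to a common library total of 1000000) in the neuroblastoma line, and inside them, where it was 3.24 times higher in a small group of cells holding transcripts of the 2-cell embryo. The 5 genes were chosen by symbol from the 33565 genes of the count tables.

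The Dppa (developmental pluripotency-associated) genes were named for expression in pluripotent cells and do not form a single protein family. DPPA2 and DPPA4 are chromatin proteins with a SAP domain that bind each other, mark developmental promoters for later activation, and can activate genes of the 2-cell embryo in stem cells. DPPA3 (Stella) is a maternal factor that protects the early embryo's DNA methylation pattern and binds UHRF1, DPPA5A (Esg1) is a KH-domain RNA-binding protein, and UTF1 is a chromatin-associated factor of undifferentiated cells.

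The lines were Neuro-2a (N2a), a mouse neuroblastoma line, NIH/3T3, a mouse embryonic fibroblast line, and E14TG2a mESCs. N2a and NIH/3T3 were grown in serum medium, and the mESCs were kept on gelatin in serum medium with leukemia inhibitory factor, the GSK3 inhibitor CHIR99021 and the MEK inhibitor PD0325901. Each line is 1 established culture, and all 3 went through 1 CapSeq library, in which single cells held in semi-permeable capsules receive their barcode in rounds of splitting and pooling. The first barcode (BC1) was assigned by line, with 32 BC1 sequences each, so that 1 sample per line was available and no test between lines could be made. Intervals are 95% exact Poisson or binomial intervals and cover counting error only.

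After filtering, 2323 N2a, 2037 NIH/3T3 and 2137 mESC cells remained, with a median of 6185, 4863 and 4803 unique molecular identifiers (UMIs) per cell. None of the 6497 cell barcodes was shared between lines, which the assignment of BC1 by line fixed in advance. Among genes marking naive pluripotency, 13 of the 14 tested were at least 4-fold higher in mESCs, led by Zfp42, Tfcp2l1 and Nanog at 1318, 713 and 572 CPM, and together they gave 4915 CPM in mESCs against 58.5 CPM in N2a and 179 CPM in NIH/3T3. Sox2 was listed at 0 in every line. The N2a marker list summed to 1174, 11.3 and 22.9 CPM in N2a, NIH/3T3 and mESCs, and the fibroblast list to 923, 7759 and 173 CPM.

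Dppa5a lies on chromosome 9 (78274031 to 78278208, minus strand, 3 exons), Dppa4 and Dppa2 lie side by side on the plus strand of chromosome 16 (48104062 to 48114896 with 7 exons, and 48124105 to 48140618 with 8 exons), Dppa3 lies on chromosome 6 (122586548 to 122607237, plus strand, 4 exons) and Utf1 on chromosome 7 (139523649 to 139525025, plus strand, 2 exons), all in GRCm39. The Ensembl identifiers are ENSMUSG00000060461, ENSMUSG00000058550, ENSMUSG00000072419, ENSMUSG00000046323 and ENSMUSG00000047751 in that order.

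The Dppa transcripts have similar copies elsewhere in the genome. A blastn search with each canonical transcript found 7 places for Dppa5a, 2 for Dppa4, 2 for Dppa2 and 1 for Dppa3 that matched at least 50% of its length at 90% identity or more, and 0 for Utf1. At 95% identity over 90% of the length, only the copy of Dppa3 remained. The closest copies of Dppa5a are the annotated pseudogenes Dppa5b and Dppa5c, each at 97.5% identity over 83.4% of the transcript, and neither is among the features of the count tables. The first 90 coding bases of Dppa5a (GRCm39 chr9:78275292-78275381, minus strand) are shown beside both copies as a stretch in which the counted gene and its uncounted copies are hard to tell apart. Capitals mark the bases that differ from Dppa5a.
Dppa5a: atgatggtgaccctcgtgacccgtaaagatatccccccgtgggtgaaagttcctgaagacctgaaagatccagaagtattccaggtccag
Dppa5b: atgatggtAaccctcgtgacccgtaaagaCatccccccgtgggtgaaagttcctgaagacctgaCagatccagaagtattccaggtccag
Dppa5c: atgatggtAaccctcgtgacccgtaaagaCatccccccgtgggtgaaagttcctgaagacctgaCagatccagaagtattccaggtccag
Both copies differed from Dppa5a at 3 of these 90 bases. The annotated transcript of each copy differed at 30 of 343 bases aligned to the coding sequence. It differed at 9 of 296 in the first 2 coding exons and 21 of 47 in the last. The genomic match of Dppa5c runs to 78180328, past its annotated end at 78179865. The last-exon figure can therefore compare unlike sequence, and how far the copies differ there was not tested. How the pipeline treated reads that fit both a gene and its copy is not given in the sources used here, so the Dppa levels can hold or lack such reads, and this was not tested. The copy of Dppa3 is the pseudogene Dppa3-ps on chromosome X, at 97.6% identity over 98.1% of the transcript. Dppa3 also overlaps Gdf3 on the opposite strand, and Dppa5a and Dppa2 each overlap a long noncoding RNA on the opposite strand that the count tables do not list. Whether counting used the strand is not given in the sources used here.

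The Utf1 promoter is shown because, of the 5 members, only Utf1 had an entry in the RefSeq promoter table (GRCm38.p6 chr7:139943606-139943905, plus strand, 250 bases before to 50 after the start). Utf1 was also the member with no copy and, after Dppa3, had the fewest UMIs in the other lines. Capitals mark the CG dinucleotides.
Utf1: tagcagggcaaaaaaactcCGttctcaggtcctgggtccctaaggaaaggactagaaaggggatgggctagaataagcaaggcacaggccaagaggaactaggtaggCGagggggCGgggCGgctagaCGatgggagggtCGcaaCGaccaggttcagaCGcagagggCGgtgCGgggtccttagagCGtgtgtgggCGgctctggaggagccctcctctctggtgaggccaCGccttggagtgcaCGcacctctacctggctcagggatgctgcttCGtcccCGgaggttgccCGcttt
The 300 bases held 17 CG dinucleotides, against a median of 7 over 32851 promoters of this length, of which 31.4% held at least as many. The octamer ATTTGCAT, searched on both strands, was not in this window and was in 1.74% of the promoters.

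Dppa5a had a UMI in more stem cells than any other member. In mESCs it had 1821 CPM (1797 to 1845), compared with 5.90 CPM (4.83 to 7.14) for N2a and 11.4 CPM (9.52 to 13.5) for NIH/3T3. This was 308 times that of N2a and 160 times that of NIH/3T3. Dppa5a UMIs were present in 96.5% of mESCs, with a median of 8 and up to 81 in a cell, and in 4.39% of N2a and 6.04% of NIH/3T3 cells, where no cell held more than 2. The low level in the other lines was no higher in cells than outside them. Barcodes with under 200 UMIs held 23.3 CPM of Dppa5a in N2a (17.3 to 30.6) and 38.0 CPM in NIH/3T3 (28.9 to 49.2). In mESCs such barcodes held 1808 CPM (1732 to 1885), with an interval that overlapped that of the cells. Where the low level came from was not tested.

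Dppa2 follows Dppa4 after a gap of 9.208 kb, and their products bind each other, but outside the mESCs their levels differed. Dppa4 reached 85.1 CPM (80.1 to 90.4) in mESCs, with 5.35 CPM (4.33 to 6.53) left in N2a and 6.33 CPM (4.97 to 7.94) left in NIH/3T3. Its intervals in N2a and NIH/3T3 overlapped, and these levels were 6.28% and 7.43% of the mESC level. Barcodes with under 200 UMIs held 2.28 CPM of Dppa4 in N2a (0.741 to 5.33) and 6.56 CPM in NIH/3T3 (3.14 to 12.1). In mESCs they held 73.3 CPM (58.8 to 90.4), and in each line the interval overlapped that of the cells.

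Dppa2 was at a different level in each of the 3 lines, from 361 CPM (351 to 372) in mESCs through N2a with 67.2 CPM (63.5 to 71.1), down to NIH/3T3 with 8.81 CPM (7.19 to 10.7). It was the only member whose level in N2a was at least 4-fold that in NIH/3T3, a rule met by 8.25% of all genes tested, at a ratio of 7.63 (6.24 to 9.43). Dppa2 UMIs were found in 34.5% of N2a cells, 4.52% of NIH/3T3 cells and 69.1% of mESCs. At least 3 UMIs were held by 95 N2a cells, 0 NIH/3T3 cells and 630 mESCs. Barcodes under 200 UMIs held 64.8 CPM of Dppa2 in N2a (54.6 to 76.4) and 15.7 CPM in NIH/3T3 (10.1 to 23.4). In mESCs the value was 321 CPM (290 to 355).

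Dppa3 was the scarcest member. It had 1 UMI in all N2a cells, 0 UMIs in NIH/3T3, where 3 counts would be 0.256 CPM and the exact interval reached 0.315 CPM, and 123 UMIs or 9.98 CPM (8.30 to 11.9) in mESCs. The exact interval of the ratio of mESCs to NIH/3T3 began at 31.2. Only 4.12% of mESCs (3.32% to 5.05%) held a Dppa3 UMI.

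Utf1 was near 0 outside the stem cells. It had 5 UMIs in N2a (0.278 CPM, 0.0904 to 0.650), 1 UMI in NIH/3T3 (0.0855 CPM, 0.00216 to 0.476) and 59.2 CPM (55.0 to 63.7) in mESCs. A Utf1 UMI was found in 23.3% of mESCs, 0.215% of N2a and 0.0491% of NIH/3T3 cells.

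**Figure D1:**
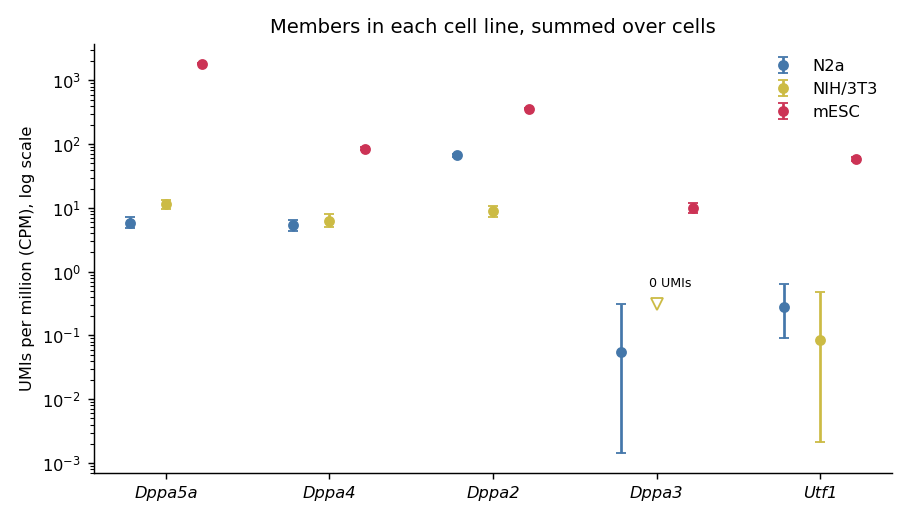
Level of each member in N2a, NIH/3T3 and mESCs, as CPM on a log axis, with points for the sum over all cells of the line and bars for 95% exact Poisson intervals. The open triangle marks the upper bound for Dppa3 in NIH/3T3, which had 0 UMIs, and Dppa2 in N2a at 67.2 CPM is the highest value outside the mESCs.

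With a pseudocount of 1 CPM, the log2 ratio of the mESC level to whichever other line was higher came to 7.20 for Dppa5a, 5.56 for Utf1, 3.56 for Dppa4, 3.38 for Dppa3 and 2.41 for Dppa2. All 5 members passed the 4-fold rule, against 6.03% of the 19248 genes tested. The median log2 ratio was 3.56 over the members and -0.38 over all genes tested. In all 8 other settings of cells, counts, pseudocount and gene filter, the number of members passing stayed at 5. The share of all genes tested that passed ran from 4.50% (genes with at least 1 UMI) to 10.7% (pseudocount of 0.1 CPM).

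The share of cells with a UMI depends on depth. When each cell was thinned to 1000 UMIs, the share of mESCs with a UMI was 80.4% for Dppa5a, 27.6% for Dppa2, 7.72% for Dppa4, 5.76% for Utf1 and 0.993% for Dppa3. In N2a and NIH/3T3 the thinned shares were 0.605% and 1.02% for Dppa5a, 0.551% and 0.563% for Dppa4, and 6.22% and 0.841% for Dppa2. Outside the mESCs, Dppa2 in N2a thus had the highest thinned share of any member.

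The same order between lines was seen in single wells. Across the 32 BC1 wells of mESCs, Dppa5a ranged from 1451 to 2251 CPM (median 1838), Dppa2 from 288 to 478 CPM (median 358), Dppa4 from 57.0 to 120 CPM (median 83.6) and Utf1 from 38.2 to 91.3 CPM (median 58.3). For these 4 genes the lowest mESC well lay above the highest well of either other line, which was 37.1, 108, 20.3 and 2.93 CPM in the same order of genes. Dppa3 ranged from 0 to 56.1 CPM in mESC wells and overlapped the other lines. For Dppa2, every N2a well (lowest 36.7 CPM) lay above every NIH/3T3 well (highest 20.5 CPM). Wells of a line hold the same culture and are not replicates of it. The share of all genes whose wells separate in this way was not counted, so the separation is a description only.

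**Figure D2:**
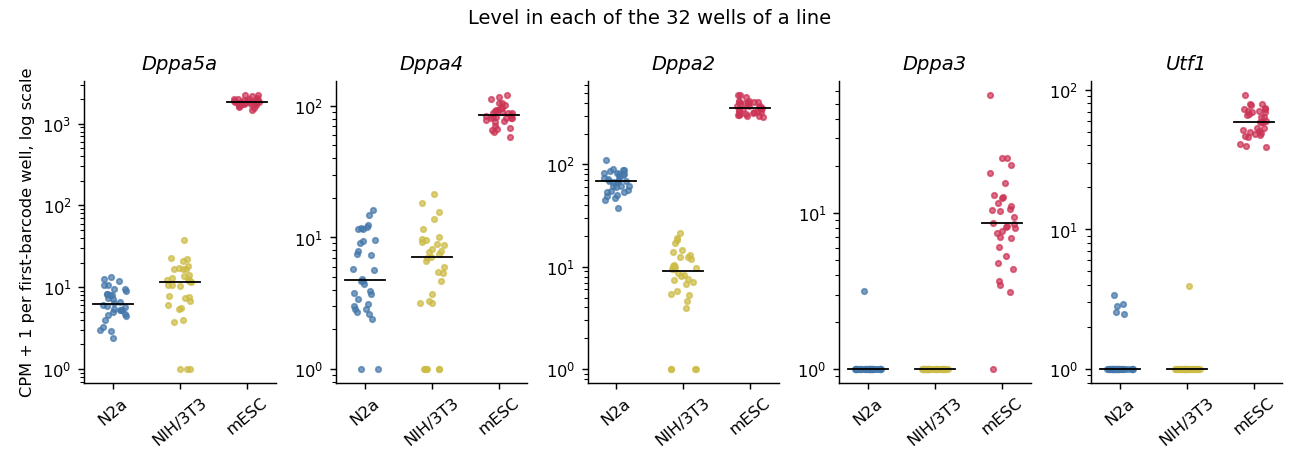
Level of each member in the 32 BC1 wells of each line, as CPM + 1 on a log axis, with 1 point per well and a black line at the median. Dppa2 forms 3 separate bands, and the mESC wells of Dppa3 reach down to 0.

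Genes of related function were read beside the members. Of the other pluripotency-associated genes, 13 of 15 were at least 4-fold higher in mESCs, led by L1td1, Tdgf1 and Fbxo15 at 614, 474 and 416 CPM. Of the subcortical maternal complex and KHDC1/DPPA5 family list, genes known from the oocyte, 2 of 5 tested passed: Ooep at 111 CPM and Khdc3 at 18.0 CPM in mESCs, while Zbed3 had 5.28 CPM there. Khdc1a, Khdc1b and Khdc1c were listed at 0 in every line.

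Of 8 genes that work with DPPA3 in DNA methylation, 4 passed. Tet1, a dioxygenase that starts demethylation, had 6.74, 5.98 and 1189 CPM in N2a, NIH/3T3 and mESCs, and Tet2 had 66.4, 5.04 and 603 CPM. Uhrf1, which brings the maintenance methyltransferase to newly copied DNA, had 189, 133 and 352 CPM. Germline genes passed in 6 of 9 cases, with Dazl at 129 CPM, Stk31 at 52.8 CPM and Sycp3 at 28.5 CPM in mESCs. Of the formative and primed genes 3 of 7 passed, which were Dnmt3b, Zic2 and Otx2 at 57.9, 23.0 and 6.74 CPM in mESCs. Dnmt3a, the highest of the list there at 75.8 CPM, had 77.6 CPM in N2a, and Fgf5 and Cer1 were listed at 0 in every line. Primitive endoderm genes passed in 1 of 5 cases, Lama1 at 63.1 CPM, with Dab2 and Gata4 at 3.49 and 2.27 CPM in mESCs, and Foxa2 was listed at 0 in every line.

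Genes near the members were examined within 100 kb. Beside Dppa5a, Ooep at 5.158 kb had 0.278, 0.513 and 111 CPM in N2a, NIH/3T3 and mESCs, and Ddx43, a germline helicase gene at 24.848 kb, had 0.334, 0.0855 and 38.0 CPM. Beside Dppa3, the overlapping Gdf3 had 101 CPM in mESCs and under 0.3 CPM elsewhere, and Nanog at 72.543 kb had 572 CPM. Slc2a3, a glucose transporter gene at 97.531 kb from Dppa3, had 196, 2.74 and 602 CPM. Other neighbours did not follow the members: Gsta2 near Dppa5a was highest in NIH/3T3 at 20.7 CPM, Adgra1 near Utf1 had 27.2 CPM in N2a and was listed at 0 in mESCs, and Tubgcp2 near Utf1 had 51.9, 49.8 and 64.2 CPM.

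Within mESCs the members differed in the ratio of the variance to the mean of their UMIs over cells. Each cell was thinned to 2000 UMIs, which left 1861 cells and left out 276. If every cell had the same mean, the variance would equal the mean, and the median ratio of variance to mean was 1.05 over the 10629 genes tested. The ratio was 1.34 for Dppa5a, 1.06 for Dppa4, 1.66 for Dppa2, 2.07 for Dppa3 and 1.17 for Utf1. Dppa5a, Dppa2 and Dppa3 thus reached 1.25, as did 4.49% of all genes tested. For the same relative spread this ratio rises with the mean, which ran from 0.0236 UMIs for Dppa3 to 3.77 for Dppa5a. The ratios therefore do not rank the members by how evenly they were spread.

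For Dppa5a, 4.51% of the thinned mESCs held no UMI, where a Poisson distribution of the same mean gives 2.30%. For Dppa2, 54.7% held none against 48.8%, and its UMIs reached 11 in a thinned cell. Dppa4 stayed close to the Poisson share, at 84.4% against 83.9%, and Utf1 was at 89.1% against 88.1%. The spread of Dppa3 rests on few molecules, 44 UMIs in all thinned cells. Without the cell with the most Dppa3 UMIs its ratio was 1.70, and at 1000 UMIs per cell it was 1.06 and that of Dppa5a was 1.246, both under 1.25. In N2a the ratio of Dppa2 was 1.04, where 2.61% of genes reached 1.25, at a mean of 0.142 UMIs against 0.718 in mESCs.

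**Figure D3:**
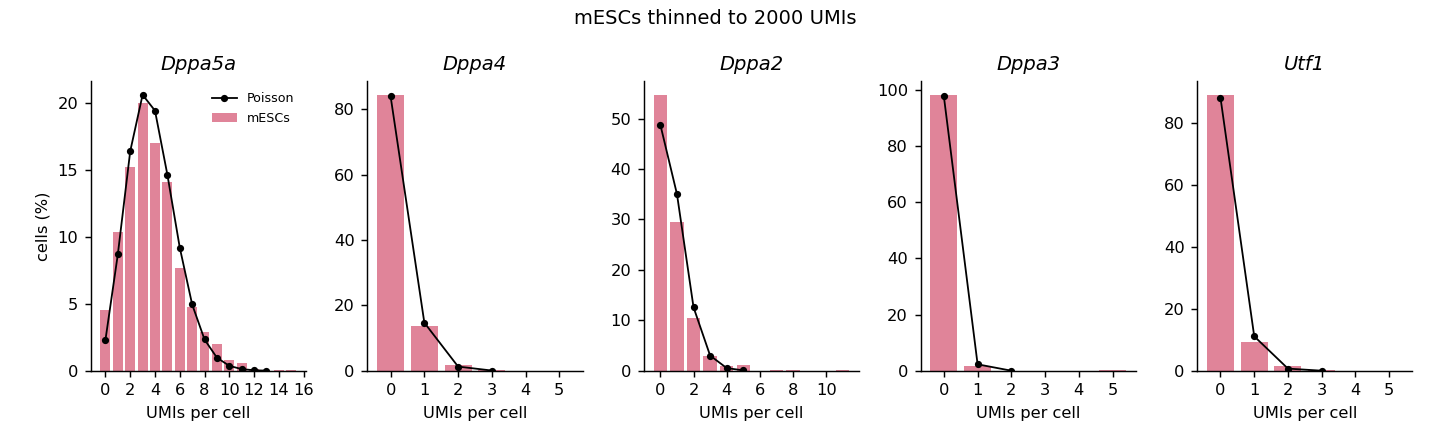
Share of mESCs (percent) by number of UMIs of each member after thinning to 2000 UMIs per cell, for 1861 cells. Bars are the cells and black points are a Poisson distribution of the same mean, drawn where it is at least 0.01%; for Dppa2 more cells held 0 UMIs than the Poisson share, and a tail reached 11.

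Of the thinned mESCs, 41.8% held UMIs of 1 member, 43.0% of 2, 12.2% of 3 and 1.18% of 4, and no cell held all 5. Dppa2 and Dppa4 were both present in 142 cells, where independent detection gives 131, and Dppa2 and Utf1 in 102 cells against 92.0. These were the pairs with the largest excess. Dppa4 and Utf1 were below, at 27 against 31.6, as were Dppa5a and Dppa4 at 275 against 277. Dppa2 was found in 49.0% (43.1% to 54.9%) of cells with a Dppa4 UMI and 44.6% (42.1% to 47.1%) of those without. These intervals overlapped, as did those for Dppa2 in cells with and without Utf1. Over 2137 mESCs, which share 1 library and vary in depth, Pearson correlations of depth-corrected residuals between Dppa5a, Dppa4, Dppa2 and Utf1 lay between -0.0737 and 0.0532.

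The thinned cells were also grouped by their Dppa5a UMIs. From the 84 cells with none to the 352 with over 5, Dppa2 went from 425 to 341 CPM, a ratio of 0.802 (0.691 to 0.934), and 0.741 with groups formed at 1000 UMIs. Dppa3 went from 3.65 to 17.8 CPM, a ratio of 4.89 (1.26 to 41.8). It rests on 2 UMIs in 2 cells and 38 UMIs in 22 cells. The intervals for Dppa4 and Utf1 spanned 1. The summed 2-cell-like list also went from 155 to 30.1 CPM along these groups, and its part in the Dppa2 ratio was not tested.

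Dppa2 was higher in cells that held transcripts of the 2-cell embryo. The list of such genes, with Zscan4d, Zscan4c and Usp17lc leading at 18.8, 15.9 and 12.7 CPM in mESCs, had at least 3 UMIs in 78 mESCs, found in 30 of the 32 wells, and in no N2a or NIH/3T3 cell; 6 of its 8 tested genes passed the 4-fold rule. Dppa2 had 1096 CPM (993 to 1208) in these cells and 338 CPM (328 to 349) in the other 2059, a ratio of 3.24 (2.92 to 3.59). By cell, the median was 856 CPM with quartiles of 389 and 1513 CPM, against 256 CPM with quartiles of 0 and 484 CPM in the others. Cells without a Dppa2 UMI numbered 11 of 78 and 650 of 2059.

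Dppa5a, Dppa4 and Utf1 were lower in the same cells, as were the summed naive pluripotency list (ratio 0.715), Zfp42 (0.634) and the DPPA3 partners (0.561). The sums of other lists went the other way. The other pluripotency-associated genes had a ratio of 1.20 (1.13 to 1.26) and the germline genes of 1.52 (1.28 to 1.78). The first of these sums was 3652 CPM in the 78 cells and 3056 CPM in the others, and it includes Fbxo15 at 2005 and 366 CPM. L1td1, the highest gene of that list in mESCs, was lower in the 78 cells, at 313 against 623 CPM. The ratio of the list without Fbxo15 was not computed. Dppa5a had 1281 CPM in the 78 cells and 1838 CPM in the others, a ratio of 0.697 (0.635 to 0.763), Dppa4 had a ratio of 0.589 (0.353 to 0.925) and Utf1 of 0.444 (0.212 to 0.821). Dppa3 had 8 UMIs in 4 of these cells, and the interval of its ratio of 2.22 spanned 1 (0.937 to 4.53). The 78 cells were shallower than the rest, with a median of 3881 against 4845 UMIs, and had 2.94% against 2.01% mitochondrial UMIs. Within quartiles of depth the Dppa2 ratio was 2.61, 4.91, 4.15 and 2.30 from the shallowest to the deepest, over 35, 12, 19 and 12 cells. The Dppa5a ratio was 0.440, 0.849, 0.746 and 0.710 in the same quartiles, with an interval that spanned 1 in the second of them (0.670 to 1.06). In these quartiles the ratio was 0.409, 0.462, 0.885 and 0.484 for Dppa4 and 0.202, 0.703, 0.308 and 0.575 for Utf1. Every one of these intervals spanned 1, with at most 9 UMIs of either gene in the 2-cell-like cells of a quartile. Within a quartile their lower level could thus not be told from counting error. Without these cells the ratio of variance to mean of Dppa2 was 1.38.

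Genes most like each member across mESCs were ranked by the same residual correlation over 9077 genes. For Dppa2 they were Fbxo15, Cul5 and Neto2, at r of 0.373, 0.345 and 0.285, and each was itself higher in the 78 cells: Fbxo15 at 2005 against 366 CPM, Cul5 at 783 against 279 CPM and Neto2 at 1701 against 30.5 CPM. Without the 78 cells, r fell to 0.261, 0.239 and 0.159, and the leading genes were Fbxo15, Cul5 and C1d. For Dppa5a they were the abundant genes Ppia, Hsp90aa1 and Eef1a1, at r of 0.279, 0.269 and 0.251. L1td1 led for both Utf1 and Dppa4, at r of 0.196 and 0.101, followed by Adam23 and Epb41l4a for Utf1 and by Eras and Zfp120 for Dppa4. Without the 78 cells L1td1 still led for Utf1, at 0.192. For Dppa4, Zfp120 at 0.0994 then came before L1td1 at 0.0977, so that its leading gene depends on these cells.

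Zfp42 (Rex1), a marker whose level varies between naive stem cells, was used to group the thinned cells. From the 188 cells with 0 Zfp42 UMIs to the 149 with over 5, Dppa3 went from 20.03 to 10.7, 7.06 and 4.51 CPM. The ratio of 0.225 (0.0566 to 0.659) rests on 23 UMIs in 12 cells and 4 UMIs in 4 cells. Its interval treats UMIs of the same cell as independent and so can be too narrow. At this depth a cell can also hold 0 Zfp42 UMIs through sampling alone, which was not tested. Utf1 went from 36.6 to 66.5 CPM (ratio 1.82, 1.20 to 2.77) and Dppa4 from 72.3 to 103 CPM (1.42, 1.04 to 1.93). The Utf1 and Dppa4 ratios turned to 0.953 and 0.959 when cells were grouped after thinning to 1000 UMIs, so their direction depends on that setting. No Dppa3 ratio was available with that grouping. Dppa5a had a ratio of 0.974 (0.912 to 1.04) and Dppa2 of 1.16 (1.01 to 1.33), which was 1.43 without the 2-cell-like cells.

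**Figure D4:**
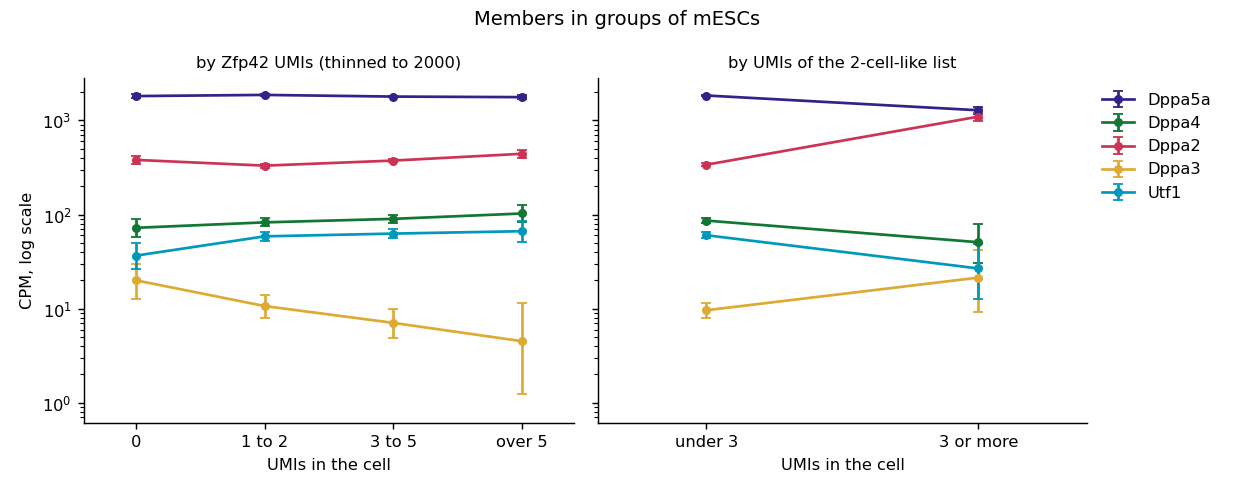
Level of each member (CPM, log axis, bars for 95% exact Poisson intervals) in mESCs grouped by Zfp42 UMIs after thinning to 2000 UMIs, left, and by UMIs of the 2-cell-like list, right. Dppa3 falls from 20.03 to 4.51 CPM along Zfp42, on 23 and 4 UMIs, and Dppa2 is at 1096 CPM in the cells with 3 or more 2-cell-like UMIs.

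Cells were also grouped by cell cycle genes and by depth. From the lowest to the highest quartile of S phase genes, Utf1 had a ratio of 1.48 (1.19 to 1.85), while the intervals of the other 4 members spanned 1. For G2/M genes, Dppa4 had a ratio of 1.24 (1.03 to 1.49) and Dppa5a of 0.901 (0.868 to 0.935). Dppa2 had a ratio of 1.09 there, with an interval that barely excluded 1 (1.0002 to 1.19). For the formative and primed list, Dppa4 had a ratio of 1.23 (1.03 to 1.47), but its level did not rise steadily. Dppa4 had 74.7, 95.6, 81.8 and 91.6 CPM from the lowest to the highest quartile of this list. The list summed to only 178 CPM in mESCs, so many thinned cells can hold 0 of its UMIs. Its quartiles can therefore split tied cells, and no conclusion on a primed state is drawn from the ratio. From the shallowest to the deepest quartile of cells, Dppa5a had a ratio of 0.920 (0.877 to 0.966), and the intervals of the other members spanned 1, with Dppa3 at 0.539 (0.296 to 1.04).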

How the data were processed

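UMI counts per cell and gene were deposited by the authors as 1 matrix per line and 1 pooled matrix, made with the CapMux pipeline and aligned to GRCm39 with GENCODE M30. The counts were used as deposited, from 1 library in which BC1 separates the lines. As in the study's methods, barcodes under 1000 UMIs or over 20% mitochondrial UMIs were left out. Doublets within a line were not removed.

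Levels are UMIs summed over the cells of a line scaled to 1000000 (CPM), and are compared within a gene, since they are not scaled by length. Intervals are exact Poisson, conditional binomial or Clopper-Pearson. Thinned shares are the mean over all possible draws, a choice made after seeing the data, and the spread used 1 random draw. The 4-fold rule used genes with at least 10 UMIs and a pseudocount of 1 CPM. The scripts were tested on simulated data. With 1 library per line, no test between lines was made.

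The members and gene lists were chosen with earlier results of these data known. Named genes were the members, the 3 highest genes of each list in mESCs and those listed at 0 in all lines, genes within 100 kb and the 3 most correlated genes. Gsta2, Adgra1, Tubgcp2 and the others near a member were picked from those within 100 kb after seeing values. Of the 33565 features, 32953 were matched to GENCODE M39 for positions. Alternatives covered the cell filter, thinning depth, pseudocount, gene filter, bins and the pooled matrix. Tools were blastn 2.17.0, pandas 2.3.3, scipy 1.17.1 and numpy 2.4.6 under Python 3.11.15.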

Additional observations from a re-analysis of the deposited data

How the results depend on the processing

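Of 129 alternative values for 31 results, 107 stayed within the error or on the same side of the threshold, 18 moved, 2 fell below a threshold and 2 reversed. The shares of mESCs with a UMI follow the depth to which cells are thinned: at 500 UMIs they were 58.2% for Dppa5a, 3.97% for Dppa4, 15.5% for Dppa2, 0.525% for Dppa3 and 2.98% for Utf1, and at 2000 UMIs 95.1%, 15.2%, 45.5%, 1.66% and 10.6%. The order of the 5 members by share was the same at each depth. The ratios between the highest and lowest Zfp42 groups reversed to 0.959 for Dppa4 and 0.953 for Utf1 with groups formed at 1000 UMIs, and the cause was not tested. With 1 UMI of the 2-cell-like list as the cutoff, the Dppa2 ratio was 2.81 and that of Dppa5a 0.837. Splits by depth quartile and those without the 2-cell-like cells or the cell with most UMIs were chosen after seeing the data. No paired analysis was possible because each line has 1 library. The 123 UMIs of Dppa3 in mESCs leave wide intervals on its ratios between groups of cells.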
